A study of Mus musculus with 16 samples.

Results

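Laminins, nidogens, perlecan and agrin are the non-collagen core of the basement membrane, the thin sheet of matrix that wraps each cardiomyocyte and underlies the endothelium of vessels. The genes described here were taken by symbol from the deposited count table: Lama2, Lama4, Lama5, Lamb1, Lamb2, Lamc1, Nid1, Nid2, Hspg2 (perlecan) and Agrn (agrin), 10 of the table's 24982 entries. The choice went by symbol, with earlier results of these data known. All 10 were found, and all 10 passed the filter on low counts.

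Laminins are trimers of an alpha, a beta and a gamma chain that assemble into a sheet on the cell surface. There they are held by integrins and by dystroglycan, the receptor that the dystrophin complex ties to the cytoskeleton. Nidogens and perlecan bridge that sheet to the collagen IV network, and agrin binds both laminin and dystroglycan. In heart muscle the alpha-2 chain is the main chain of the sheet around cardiomyocytes, while the alpha-4 and alpha-5 chains are best known from vessel walls.

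Each of 16 C57BL/6 mice gave 1 RNA library, made from its left ventricle. The knockout group held 8 mice (4 females and 4 males) that were Tln2-null and had a cardiac fibroblast (CF) knockout of Tln1. The other group held 8 Tln2-null mice (4 females and 4 males). Tln1 and Tln2 encode talins, the adaptors that couple integrins to actin. Tamoxifen was injected for 5 days in both groups. The hypertensive hormone angiotensin II (AngII) was then given to all mice by osmotic pumps, which ran for 8 weeks and began 2 weeks after the tamoxifen, so no mouse was without AngII and none was wild type. Which Cre line drove the deletion, and which exons of Tln1 it removed, is not stated in the labels.

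Total counts ran from 11161766 to 19221673 per library. Values are given as CPM, read counts relative to a library size that was scaled by edgeR's trimmed mean of M values (TMM), and 3 counts correspond to 0.151 to 0.268 CPM on that scale. Tln1 had 221 to 323 CPM (median 279) in knockout ventricles, against 251 to 322 CPM (median 289) in Tln2-null ventricles. Its log2 difference was -0.08 ± 0.07 (SE; adjusted p = 0.942, edgeR quasi-likelihood test). The groups overlapped in this transcript, which was counted over the whole gene and in all cell types of the ventricle. Tln2 had 62.4 to 70.4 CPM in knockout and 55.6 to 76.8 CPM in Tln2-null ventricles, so reads of the Tln2 gene were present in both groups. In 4 libraries labelled female (3 knockout, 1 Tln2-null), Y-linked counts were over 1% of the male mean, between 1.10% and 2.85%. Knockout replicate 8 and Tln2-null replicate 8 stood apart in clock genes, with 27.1 and 28.4 CPM of Arntl, against at most 8.44 CPM in the other libraries. The main values without these libraries are given beside the results or with the other alternatives.

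Promoter sequences of RefSeq GRCm38.p6 (250 bases before to 50 bases after the annotated start) were matched for Lama2, Lama5, Lamb1, Lamb2, Nid1, Hspg2 and Agrn. Those of Lama2 and Lama5 are shown because these chains were the least and the most variable members. Those of Hspg2 and Agrn are shown because their transcripts varied together from heart to heart. Capitals mark the GC box (GGGCGG, or CCGCCC on the other strand), the letters bound by SP-family factors, and overlapping matches are merged in the capitals.
Lama2, chr10:27616893-27617192, minus strand: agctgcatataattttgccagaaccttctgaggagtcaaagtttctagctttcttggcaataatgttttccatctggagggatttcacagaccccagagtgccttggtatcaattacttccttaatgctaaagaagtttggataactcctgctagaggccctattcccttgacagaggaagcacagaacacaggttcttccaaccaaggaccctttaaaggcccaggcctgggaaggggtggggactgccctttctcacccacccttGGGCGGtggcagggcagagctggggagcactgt
Lama5, chr2:180225810-180226109, minus strand: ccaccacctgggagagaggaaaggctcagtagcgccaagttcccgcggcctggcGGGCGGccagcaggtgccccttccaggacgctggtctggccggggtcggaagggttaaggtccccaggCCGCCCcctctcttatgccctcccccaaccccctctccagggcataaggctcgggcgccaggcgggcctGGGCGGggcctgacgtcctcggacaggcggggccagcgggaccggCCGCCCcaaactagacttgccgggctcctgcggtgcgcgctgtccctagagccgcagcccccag
Hspg2, chr4:137468553-137468852, plus strand: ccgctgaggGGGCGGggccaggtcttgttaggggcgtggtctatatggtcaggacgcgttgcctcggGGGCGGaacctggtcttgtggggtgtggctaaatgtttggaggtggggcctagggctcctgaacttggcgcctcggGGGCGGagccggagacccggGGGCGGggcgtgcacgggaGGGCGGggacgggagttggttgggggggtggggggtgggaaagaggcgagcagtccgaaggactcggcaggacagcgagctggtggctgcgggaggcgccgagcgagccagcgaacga
Agrn, chr4:156197439-156197738, minus strand: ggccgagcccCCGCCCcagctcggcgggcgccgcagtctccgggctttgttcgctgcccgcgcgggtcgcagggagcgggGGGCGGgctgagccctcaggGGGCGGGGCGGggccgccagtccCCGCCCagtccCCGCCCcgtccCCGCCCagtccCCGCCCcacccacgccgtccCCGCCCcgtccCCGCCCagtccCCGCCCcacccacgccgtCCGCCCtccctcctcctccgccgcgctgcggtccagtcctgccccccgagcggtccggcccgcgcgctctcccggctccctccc

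The Lama2 window had a GC content of 50.3%, 1 CG dinucleotide and 1 GC box. Across the 32817 promoter windows of the same length, the median GC content was 52.7%, the median number of CG dinucleotides was 7, and 35.6% held a GC box. The Lama5 window had a GC content of 72.7% with 24 CG dinucleotides and 4 GC boxes, and the Hspg2 window had 70.3% with 27 CG dinucleotides and 5 GC boxes. At the Agrn start shown, GC content was 83.3%, with 42 CG dinucleotides and 12 GC boxes, 2 of which overlap. A second annotated Agrn start (chr4:156186210-156186509), not shown, had a GC content of 61.3%, 11 CG dinucleotides and 2 GC boxes. The 4 windows shown held no TATAAA (13.6% of all windows), no CCAAT (37.4%), no TGANTCA (the AP-1 site, 7.81%), no CAGACA (a SMAD element, 21.04%) and no CACGTG (an E-box, 7.15%) on either strand. The matched windows not shown of Lamb2, Lamb1 and Nid1 had a GC content of 44.0%, 63.7% and 64.7%, with 0, 2 and 1 GC boxes. These matches describe the letters in the windows only, and a relation to the spread of the transcripts was not tested.

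Levels were first compared between chains as CPM per kilobase of exons, which allows genes of different length to be set side by side. Lamb2, the beta-2 chain, was the most abundant transcript, at 82.5 ± 11.9 CPM per kb in knockout and 90.5 ± 7.69 in Tln2-null hearts (SD, n = 8 each), and it exceeded the next gene in 16 of 16 libraries. Lamc1, the gamma-1 chain shared by nearly all heart laminins, followed at 39.7 ± 6.52 CPM per kb in knockout and 42.0 ± 5.47 in Tln2-null hearts. Hspg2 stood at 37.7 ± 7.16 and 41.1 ± 5.31 CPM per kb, Nid1 at 33.9 ± 6.68 and 34.7 ± 4.18, and Lamb1, the beta-1 chain, at 31.3 ± 2.53 and 31.7 ± 3.54, each in knockout and Tln2-null hearts in that order. These 4 neighbours changed places between hearts: Lamc1 exceeded Hspg2 in 11 of 16 libraries, Hspg2 exceeded Nid1 in 13, and Nid1 exceeded Lamb1 in 10.

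The alpha chains had similar levels per length. Over all 16 libraries Lama5 had 25.7 ± 7.31 CPM per kb, Lama2 21.9 ± 1.42 and Lama4 21.5 ± 3.12 (SD, n = 16), with Lama5 above Lama2 in 10 libraries and Lama2 above Lama4 in 11. Agrn (12.1 ± 1.76 CPM per kb) lay below Lama4 and above Nid2 (6.56 ± 1.23) in 16 of 16 libraries. Of the transcripts of the alpha chains per length, Lama2 made up 33.3 ± 3.39% in knockout and 30.9 ± 3.54% in Tln2-null hearts, and Lama5 35.9 ± 5.07% and 37.3 ± 7.33%. Lamb2 made up 72.3 ± 2.86% of the beta chain transcripts in knockout and 74.0 ± 2.44% in Tln2-null hearts, and Nid1 made up 84.0 ± 1.58% and 83.9 ± 1.58% of the nidogen transcripts in the same order.

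Chains outside this group were low. Lamb3, a beta chain best known from epithelia, had 3.62 ± 0.575 CPM per kb, and the alpha chain Lama3 had 0.689 ± 0.0866 (SD, n = 16). Lamc3 and Lama1 had counts in 13 of 16 libraries each, with at most 18 and 5 counts in a library, and did not pass the filter on low counts.

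**Figure D1:**
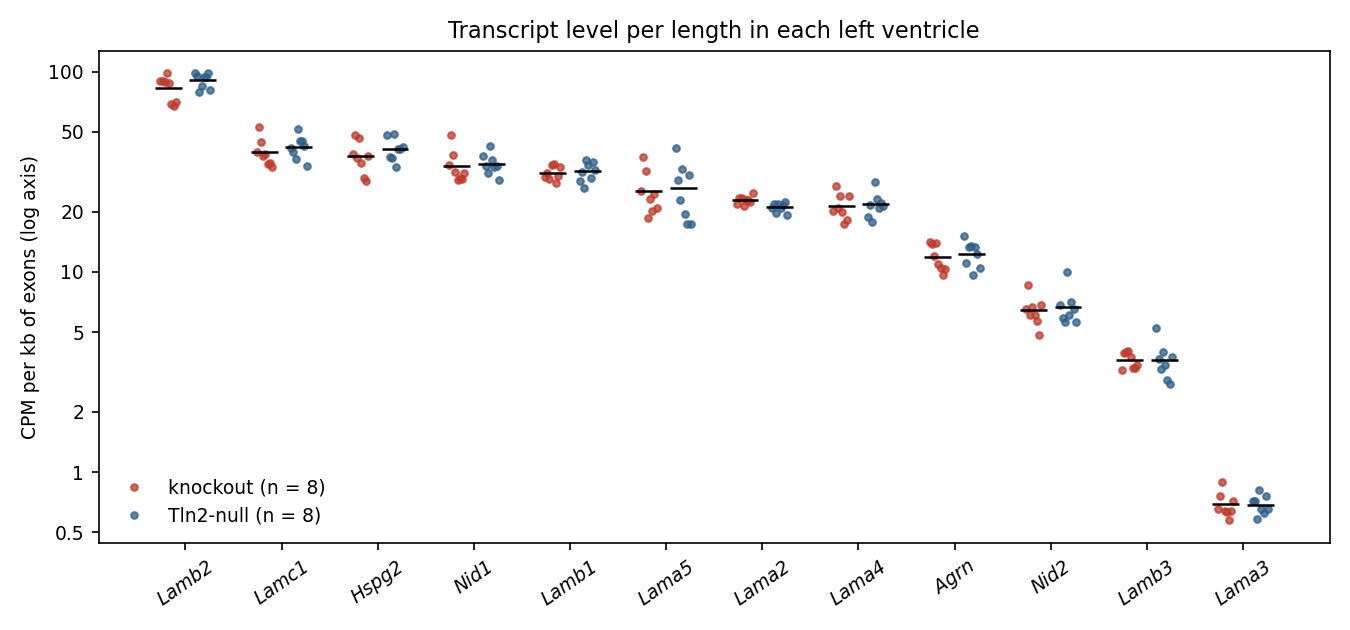
CPM per kb of exons (log axis) of the 10 genes and of 2 other laminin chains in each library, with knockout points left of Tln2-null points and a line at each group's mean. Lamb2 lies above all other chains, Lama2 points lie within a narrow band, and the genotypes overlap for every gene.

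The study's comparison asks how the ventricle of AngII-treated mice differs when cardiac fibroblasts lack talin. For this core of the basement membrane no gene passed an adjusted p of 0.05 between knockout and Tln2-null hearts (0 of 10 genes, against 0 of 13775 genes tested, 0%, edgeR quasi-likelihood test with sex as a term). At an unadjusted p under 0.05, 1 of the 10 was found, Lama2, against 5.08% of all genes tested (700 genes). Signs were unequal, with 9 of the 10 at a log2 fold change below 0, against 51.2% of all genes. The median was -0.053 for the 10 genes and -0.0027 for all genes. That count of lower values depended on the libraries used. It was 5 of 10 without Tln2-null replicate 4, and leaving out 1 library at a time took the median from -0.12 (without knockout replicate 2) to -0.0070 (without knockout replicate 7). The count was 6 with the title number as a covariate, and 3, with a median of 0.037, without the 4 females with Y-linked reads, which leaves 1 knockout female. Over all genes, DESeq2 called 17 and limma-voom with quality weights 11, none of them among the 10. Leaving out knockout replicate 8 gave 7 calls, Tln2-null replicate 1 gave 3 and Tln2-null replicate 4 gave 1, again none among the 10.

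Among the alpha chains, Lama2 (chr10:26981285-27617191) encodes the chain that carries dystroglycan binding around heart and skeletal muscle fibres and is mutated in a congenital muscular dystrophy. It had 214, 230, 231, 210.0, 223, 225, 218 and 243 CPM in knockout replicates 1 to 8. The Tln2-null replicates 1 to 8 had 205, 215, 193, 214, 205, 211, 219 and 188 CPM. Over all mice, neither Lama2 nor any other of the 10 genes had groups that did not overlap, which 0.0436% of all genes had. Each of the 8 knockout hearts lay above the Tln2-null mean of 206.3 ± 10.8 CPM (SD, n = 8), and a pattern of that kind was seen in 0.799% of all genes. The log2 fold change was 0.12 ± 0.045 (SE), with a 95% interval of 1.02-fold to 1.16-fold, an unadjusted p of 0.0158 and an adjusted p of 0.904 (edgeR quasi-likelihood test). The highest and the lowest of the 16 hearts were knockout replicate 8 and Tln2-null replicate 8, the pair that stood apart in clock genes. Without this pair the log2 fold change was 0.08 (adjusted p = 0.793, edgeR), and no member reached an unadjusted p under 0.05.

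Cardiomyocyte markers are given beside Lama2. Over all mice, all 10 of them had a log2 fold change above 0 (median 0.072), and their summed level was 49977 to 60361 CPM (median 58438) in knockout and 51164 to 56851 CPM (median 54010) in Tln2-null hearts. Within females, however, 4 of the 10 markers were higher and 6 lower (median -0.032), while within males all 10 were higher (median 0.18). None of the 10 was called and none was at 0. Their part in the Lama2 values was not tested. In bulk ventricle, fewer cells of a type and less RNA per cell cannot be told apart.

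Lama4 (chr10:38965515-39110188), the alpha chain of microvessel laminin-411, had 104 to 162 CPM (median 123) in knockout and 107 to 170.2 CPM (median 129.8) in Tln2-null hearts. Its log2 fold change of -0.022 ± 0.10 (SE) had a 95% interval of -0.23 to 0.18. Lama5 (chr2:180176373-180225904), the alpha chain of laminin-511 and laminin-521 in mature vessels, had 210.4 to 425 CPM (median 270.3) in knockout and 196 to 471 CPM (median 293) in Tln2-null hearts. At -0.070 ± 0.18 (SE), with a 95% interval of -0.46 to 0.32, it had the widest interval of the 10 genes. Leaving out Tln2-null replicate 1, the highest heart, turned its sign (0.067). Both genes had adjusted p-values of 0.979 or more.

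Of the beta chains, Lamb1 (chr12:31265146-31329644) is the common partner in developing and vascular laminins, and Lamb2 (chr9:108479847-108490530) is the chain of the laminin-221 and laminin-521 trimers of adult muscle, vessels and the neuromuscular junction. Lamb1 had 163 to 203 CPM (median 179) in knockout and 153 to 211 CPM (median 187) in Tln2-null hearts, with a log2 fold change of -0.020 ± 0.07 (SE; adjusted p = 0.988, edgeR). For Lamb2 the knockout replicates 1 to 8 had 508, 506, 497, 552, 492, 386, 379 and 396 CPM, and the Tln2-null replicates 1 to 8 had 551, 538, 446, 478, 529, 527, 553 and 454 CPM. Knockout replicates 6, 7 and 8 lay below every Tln2-null heart, while the other 5 knockout hearts lay within the Tln2-null range. Those 3 libraries also carry the highest title numbers, 15, 16 and 18, and their order in time is not stated. Lamb2 had the lowest log2 fold change of the 10, -0.13 ± 0.08 (SE), with a 95% interval of -0.31 to 0.04 and an adjusted p of 0.935 (edgeR). With the title number as a covariate it was -0.08.

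Lamc1 (chr1:153218922-153332786) had 254 to 405 CPM (median 293) in knockout and 258 to 392.1 CPM (median 320) in Tln2-null hearts, a log2 fold change of -0.09 ± 0.09 (SE) with a 95% interval of -0.28 to 0.11. Nid1 (chr13:13437602-13512275), the nidogen that binds the gamma-1 chain, had 176 to 294 CPM (median 191) in knockout and 176 to 258 CPM (median 207) in Tln2-null hearts. Its log2 fold change was -0.038 ± 0.10 (SE), with a 95% interval of -0.25 to 0.18. Nid2 (chr14:19751257-19811787), the less abundant nidogen, had 23.5 to 41.7 CPM (median 30.8) in knockout and 27.4 to 48.8 CPM (median 30.7) in Tln2-null hearts, a log2 fold change of -0.06 ± 0.12 (SE). The groups overlapped for all 3 genes, with adjusted p-values of 0.946 for Lamc1, 0.979 for Nid1 and 0.974 for Nid2 (edgeR).

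Both proteoglycans overlapped between genotypes as well. Hspg2 (chr4:137468751-137570630), whose perlecan core protein carries heparan sulfate and binds growth factors, had 402 to 689 CPM (median 532) in knockout and 473 to 691 CPM (median 583) in Tln2-null hearts. The log2 fold change was -0.12 ± 0.11 (SE), with a 95% interval of -0.35 to 0.10 and an adjusted p of 0.942 (edgeR). Knockout replicates 6 and 7, at 420 and 402 CPM, lay below every Tln2-null heart. Agrn (chr4:156165290-156197533), best known for clustering acetylcholine receptors at the neuromuscular junction, had 75.1 to 109.9 CPM (median 89.5) in knockout and 75.2 to 117 CPM (median 99.2) in Tln2-null hearts. Its log2 fold change was -0.05 ± 0.10 (SE).

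**Figure D2:**
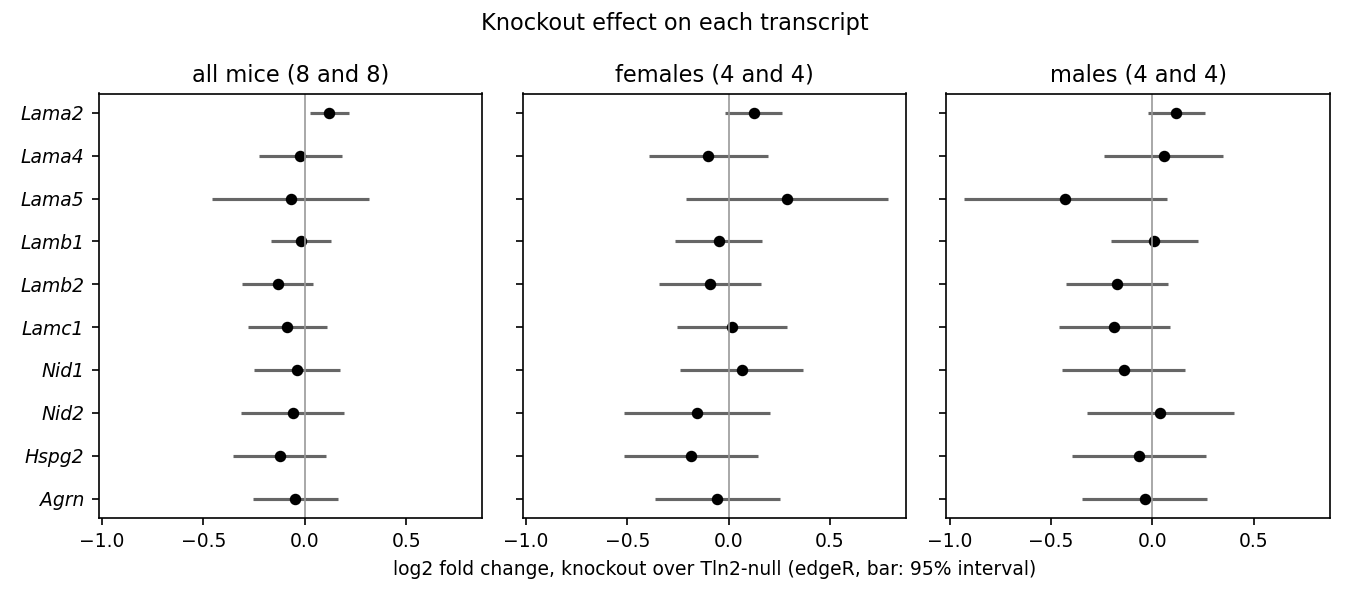
Log2 fold change of knockout over Tln2-null hearts for each gene (points) with its 95% interval (bars), from edgeR, over all mice and within females and males. Lama2 is the one gene whose interval over all mice excludes 0, and Lama5 has the widest intervals, at 0.29 in females and -0.43 in males.

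Fibroblast markers, set beside these values, were lower in knockout hearts for 10 of 10 genes (median log2 fold change -0.43, none called in edgeR, 8 at an unadjusted p under 0.05, none at 0). Their summed level was 2132 to 3388 CPM (median 2561) in knockout and 2685 to 3900 CPM (median 3352) in Tln2-null hearts. Endothelial markers had 5 genes higher and 5 lower (median 0.011), and their sums were 1445 to 1975 CPM in knockout and 1538 to 1854 CPM in Tln2-null hearts. Mural cell markers had 3 higher and 7 lower (median -0.16), with 2 of the higher and 3 of the lower at an unadjusted p under 0.05 (edgeR). Their sums were 1882 to 2251 CPM (median 2078) in knockout and 1797 to 2471 CPM (median 1959) in Tln2-null hearts. Schwann cell markers had 2 of 7 tested higher and 5 lower (median -0.13, sums 77.0 to 126 CPM in knockout and 87.8 to 135 CPM in Tln2-null hearts), and macrophage markers 6 higher and 4 lower (median 0.023, sums 369 to 506 CPM and 403 to 490 CPM in the same order). Of the mesothelial and epicardial markers, 2 passed the filter, 1 higher and 1 lower, with sums of 8.74 to 18.4 CPM in knockout and 9.55 to 17.3 CPM in Tln2-null hearts. The part of these cell types in the values of the 10 genes was not tested.

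The genotype effect was then taken within each sex. In females 6 of the 10 genes were lower in knockout hearts (median log2 fold change -0.052), against 50% of all genes, and in males also 6 (median -0.051), against 51.5% of all genes. None was called in either sex, as for all 13775 genes (0%). Single libraries set these counts: without Tln2-null replicate 4 the females had 2 lower (median 0.030) and without knockout replicate 7 they had 5 (median 0.013). In males 4 were lower without knockout replicate 6 (median 0.037) and 9 without Tln2-null replicate 3 (median -0.075). Lama2 was alike in both, with a log2 fold change of 0.12 ± 0.07 (SE) in females and 0.12 ± 0.07 in males, and a difference between the sexes of 0.0070 ± 0.09. Its ranges overlapped in males but not in females, with 217.9 to 230.6 CPM in knockout and 188.1 to 214.6 CPM in Tln2-null females (n = 4 each). The share of all genes with such groups in females is not given here. The largest difference between the sexes was that of Lama5. Knockout females had 425, 364, 262 and 278 CPM, and Tln2-null females had 326, 369.8, 197 and 196 CPM of Lama5. Knockout males had 289.6, 210.4, 229 and 237 CPM, and Tln2-null males had 471, 261, 222 and 345 CPM. Ranges overlapped in both sexes. The log2 fold change was 0.29 ± 0.24 (SE) in females and -0.43 ± 0.24 in males, and the female minus male difference of 0.72 ± 0.34 had an unadjusted p of 0.0473 and an adjusted p of 0.980 (edgeR quasi-likelihood test). Unadjusted values under 0.05 were found for 4.27% of all genes in that test and for 1 of these 10. Without Tln2-null replicate 1, a male, the difference was 0.49 and the effect in males -0.19. The effect in females was 0.16 without knockout replicate 2 and 0.47 without Tln2-null replicate 4. Without the replicate 8 pair it was 0.17. When the 4 females that carry Y-linked reads were left out, it was 0.82, with a difference between the sexes of 1.25 (adjusted p = 0.651, edgeR).

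**Figure D3:**
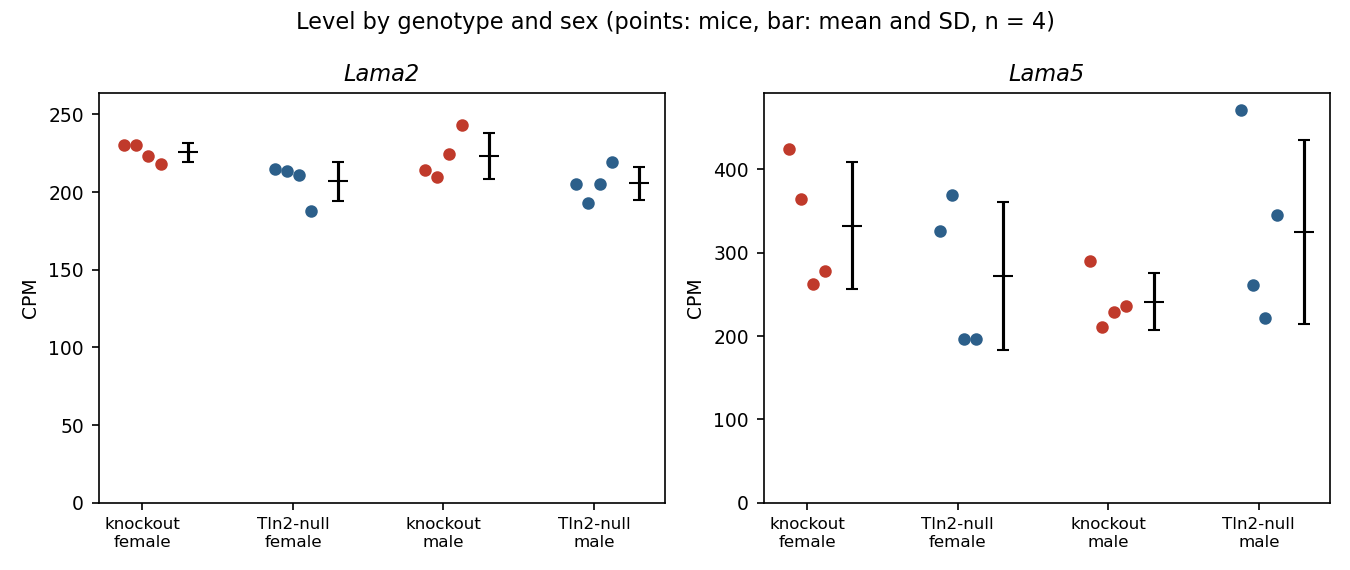
CPM of Lama2 and Lama5 in each heart by genotype and sex, with mean and SD (n = 4 per group, axes from 0). Lama2 knockout means lie above Tln2-null means in both sexes, while Lama5 spreads widely and its genotype means lie in opposite order in females and males.

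Between the sexes, over both genotypes, 8 of the 10 genes were higher in females and 2 lower, against 49.6% of all genes higher. The median log2 difference was 0.058, and 0 of the 10 were called, against 12 of all genes (0.0871%, edgeR quasi-likelihood test). Lamc1 had the highest value, with 326 ± 54.2 CPM in females and 297 ± 31.0 CPM in males (SD, n = 8 each) and a log2 difference of 0.14 ± 0.09 (SE). Agrn had the lowest, at -0.07 ± 0.10, with 92.1 ± 11.9 CPM in females and 96.6 ± 15.8 CPM in males. No gene of the 10 reached an unadjusted p under 0.05 here, where 3.69% of all genes did. Leaving out Tln2-null replicate 3, a male, gave 5 higher and 5 lower, and leaving out Tln2-null replicate 4, a female, took the median to 0.0036.

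Ratios within a library need no scaling between libraries, so exchanges between alternative chains were tested on them. The log2 ratio of Lama2 to Lama4 CPM was 0.81 ± 0.21 in knockout and 0.66 ± 0.18 in Tln2-null hearts (SD, n = 8 each; exact permutation within sex, two-sided p = 0.154). That of Lamb1 to Lamb2 was -1.34 ± 0.20 in knockout and -1.46 ± 0.18 in Tln2-null hearts (exact permutation p = 0.231), and that of Agrn to Hspg2 was -2.52 ± 0.15 and -2.61 ± 0.16 in the same order (exact permutation p = 0.256). Lama5 to Lama2 stood at 0.32 ± 0.33 in knockout and 0.47 ± 0.43 in Tln2-null hearts, and Nid2 to Nid1 at -2.72 ± 0.17 and -2.71 ± 0.16. None of the 10 tests, 5 ratios by genotype and by sex, passed after Benjamini-Hochberg adjustment (adjusted p from 0.772 to 0.920, where 0.00041 was the smallest unadjusted p the 4900 exchanges could give). No exchange of chains was detectable in these 16 hearts.

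For 9 of the 10 genes, all but Lama2, the spread from heart to heart was larger than the genotype difference on the log2 scale. Lama2 was the steadiest, with an SD of 0.078 on the log2 scale within genotype and sex and a 1.29-fold range over 16 hearts. That spread lay at percentile 10.3 of the 1509 genes within 2 times its level. Lamb1 followed with an SD of 0.15 (percentile 66.9), then Lamb2 with 0.19 (80.4), Lamc1 with 0.20 (83.4), Lama4 with 0.22 (86.3), Nid1 with 0.23 (87.6), Agrn with 0.23 (88.0), Hspg2 with 0.25 (90.9) and Nid2 with 0.27 (88.6). Lama5 had the widest spread, an SD of 0.39 at percentile 97.3 and a 2.40-fold range. So 9 of the 10 genes varied more than the median gene of like level and Lama2 less.

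The same hearts were often high or low for several genes. Knockout replicate 2 was among the highest 3 of 16 for 7 of the 10 genes and Tln2-null replicate 4 for 7, and both are females. Knockout replicate 7 was among the lowest 3 for 6 genes, and knockout replicate 6 and Tln2-null replicate 8 for 5 each. Knockout replicate 2 also had the lowest cardiomyocyte marker sum (49977 CPM) and the highest endothelial sum (1975 CPM) of all 16 hearts, and knockout replicate 7 the lowest endothelial sum (1445 CPM). The part of cell makeup in this was not tested.

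**Figure D4:**
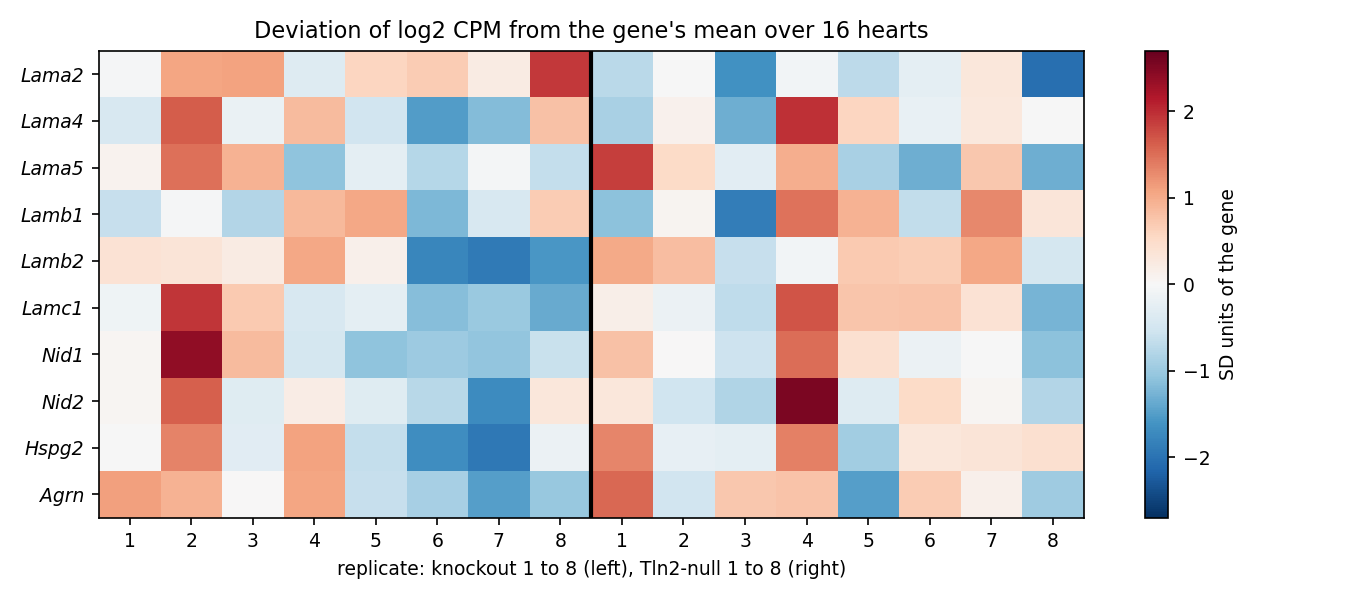
Deviation of log2 CPM from each gene's mean over 16 hearts, in SD units (red above, blue below), with knockout replicates 1 to 8 left of the line and Tln2-null replicates 1 to 8 right of it. Knockout replicate 2 and Tln2-null replicate 4 are red for most genes, and knockout replicates 6 and 7 are blue for most genes but not for Lama2.

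Pairs of gene products that share a trimer or bind one another were compared across the 16 hearts (15 pairs, log2 CPM, permutation p with Benjamini-Hochberg adjustment over the pairs). By Pearson's r, 7 pairs passed. Many other genes had r as high. Of 10711 genes ordered by r with Lamc1, Lama4 held place 698 and Lamb2 place 865. In the order by r with Nid1, Nid2 held place 138 and Hspg2 place 691, and Agrn held place 137 for Hspg2. Whether members that bind one another vary together more than other genes was not tested. Nid1 and Lamc1, whose proteins bind directly, followed each other most closely, with r = 0.89 (permutation p = 1e-05, the smallest that 100000 resamples can give, adjusted p = 0.00015) and Spearman's rho = 0.84 (permutation p = 0.00011, adjusted p = 0.00165). Within knockout hearts r was 0.92 and within Tln2-null hearts 0.87, without the 2 hearts farthest from the Nid1 median it was 0.79, and with the title number removed it was 0.84. In Tln2-null hearts alone, where n is 8, the adjusted exact p was 0.0569.

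Hspg2 and Agrn had r = 0.77 (permutation p = 0.00048, adjusted p = 0.0036) and rho = 0.70 (permutation p = 0.00298, adjusted p = 0.0149), with 0.84 in knockout and 0.71 in Tln2-null hearts. Without the 2 farthest hearts r was 0.70. Lama4 and Lamb1 had r = 0.72 (permutation p = 0.00188, adjusted p = 0.00705) and rho = 0.71 (permutation p = 0.00296, adjusted p = 0.0149), with 0.54 in knockout and 0.89 in Tln2-null hearts and 0.78 without the 2 farthest. These 3 pairs kept an adjusted p under 0.05 over 16 hearts by r and by rho, without the 2 farthest hearts and with the title number removed. Within a genotype each missed that threshold in 1 group. For Hspg2 and Agrn this was in Tln2-null hearts (adjusted exact permutation p = 0.121). For Lama4 and Lamb1 it was in knockout hearts (adjusted exact permutation p = 0.284). The place of Lamb1 in the order by r with Lama4 is not given here.

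The other 4 pairs that passed by r did not pass by rho. Nid1 and Nid2 had r = 0.76 (permutation p = 0.00093, adjusted p = 0.00465) and rho = 0.61 (adjusted permutation p = 0.053). For this pair r fell to 0.48 without the 2 farthest hearts (adjusted permutation p = 0.183). With the title number removed it was 0.74 (adjusted permutation p = 0.0063). Lama4 with Lamc1 had r = 0.61 and rho = 0.42 (adjusted permutation p = 0.0295 and 0.172), and r fell to 0.23 without the 2 farthest hearts. That r was 0.67 with the title number removed (adjusted permutation p = 0.0166). Leaving out the most extreme hearts narrows the range and can by itself lower r, so these drops do not show what a relation rests on. Hspg2 with Nid1 had r = 0.61 and rho = 0.46 (adjusted permutation p = 0.0295 and 0.146), and Lamb2 with Lamc1 had r = 0.58 and rho = 0.52 (adjusted permutation p = 0.0378 and 0.124). Without the 2 farthest hearts these had r = 0.51 and r = 0.45 and no longer passed (adjusted permutation p = 0.183 and 0.198). No pair with Lama2 passed. Its r was 0.19 with Lamb1, -0.23 with Lamb2 and 0.14 with Lamc1 (adjusted permutation p = 0.503 or more). With Lamb2 it was -0.39 within knockout hearts and 0.74 within Tln2-null hearts, and with Lamc1 0.057 and 0.74 in the same order (adjusted exact permutation p = 0.116 or more in each).

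**Figure D5:**
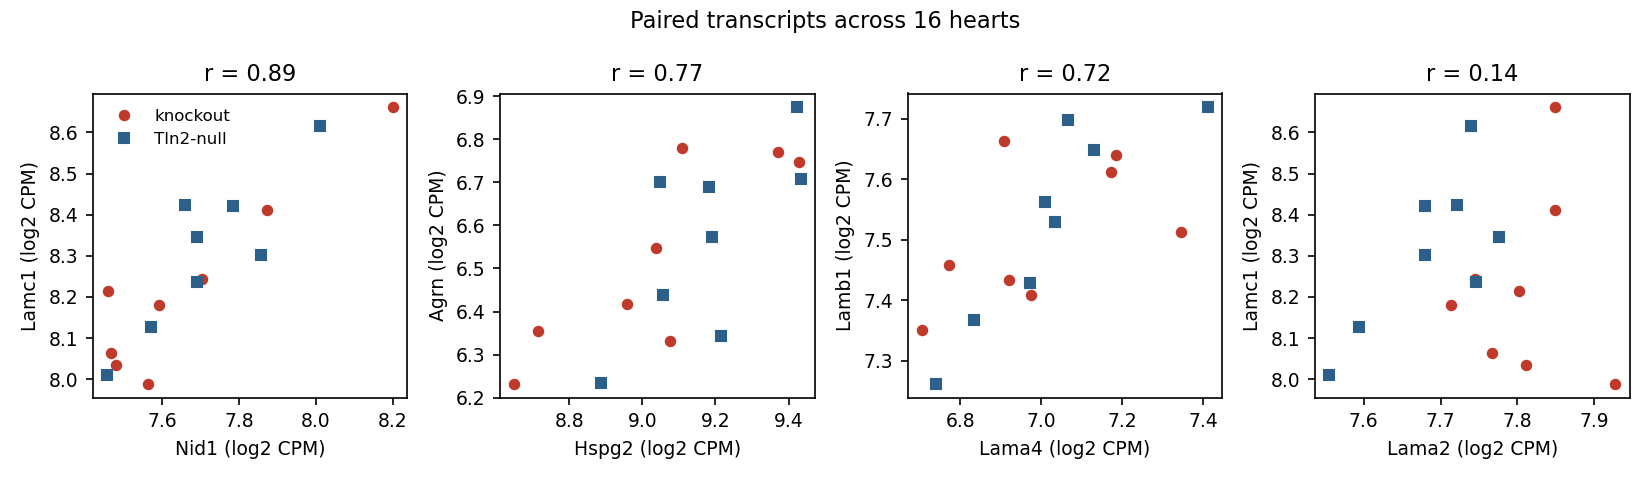
Log2 CPM of 4 pairs across 16 hearts, with knockout hearts as circles and Tln2-null hearts as squares. Points of Nid1 with Lamc1 (r = 0.89), Hspg2 with Agrn (r = 0.77) and Lama4 with Lamb1 (r = 0.72) follow a line, while those of Lama2 with Lamc1 (r = 0.14) scatter.

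Among 10711 genes of at least 5 CPM, those most like Lamc1 over the 16 hearts by Pearson's r of log2 CPM were Fn1 (fibronectin, 0.93), Vim (vimentin, 0.91), App (0.91), Plod3 (a collagen lysyl hydroxylase, 0.90) and Men1 (0.90), and Nid1 came next, in place 6. Most like Nid1 were Sptan1 (alpha-II spectrin, 0.95), Fn1 (0.92), Sema6b (0.91), Prrg3 (0.90) and Gprc5b (0.90). For Hspg2 they were Cdc42bpb (0.93), Flt4 (a receptor of lymphatic and other endothelium, 0.91), Jak3 (0.90), Rexo1 (0.90) and Ski (0.88). These are descriptions of the same 16 libraries, which share their depth and composition.

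Genes of the molecules that hold or complete the basement membrane were counted in the same genotype test, and none of the lists had a gene at an adjusted p under 0.05 in edgeR. Of 12 receptors tested, 6 were higher and 6 lower in knockout hearts (median log2 fold change -0.0098). The lowest p-values were those of Itgb4 (integrin beta-4), Cd44, Itga3 (integrin alpha-3) and Sdc4 (syndecan-4), with log2 fold changes of -0.26 ± 0.20, -0.18 ± 0.16, 0.07 ± 0.09 and -0.12 ± 0.18 (SE). Of the dystrophin complex, which anchors dystroglycan, 9 of 12 genes were higher (median 0.037, none at an unadjusted p under 0.05). Sgcd and Sgcb, 2 sarcoglycans of that complex, had 241 ± 25.5 and 267 ± 11.6 CPM in knockout and 220.4 ± 14.7 and 254 ± 11.2 CPM in Tln2-null hearts (SD, n = 8 each). Their log2 fold changes were 0.13 ± 0.06 and 0.07 ± 0.04 (SE), while Sgce, another sarcoglycan, had -0.13 ± 0.08.

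Enzymes that build the sugar chain of dystroglycan to which laminin binds were 7 higher and 6 lower of 13 (median 0.011). Tmem5, Pomk, Gmppb and Ispd had log2 fold changes of 0.09 ± 0.07, -0.07 ± 0.07, -0.07 ± 0.09 and 0.07 ± 0.08 (SE). For heparan sulfate, the chain carried by perlecan and agrin, 15 of 21 genes of synthesis and editing were lower (median -0.041). Sulf1, an extracellular enzyme that removes sulfate from heparan sulfate, had 40.8 ± 9.82 CPM in knockout and 51.5 ± 10.9 CPM in Tln2-null hearts, a log2 fold change of -0.34 ± 0.14 (SE; unadjusted p = 0.0237, adjusted p = 0.917, edgeR). Its relative Sulf2 had -0.20 ± 0.10, and the sulfotransferases Hs6st1 and Hs3st3a1 had -0.10 ± 0.06 and -0.29 ± 0.19.

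Of the basement membrane collagens, the network to which nidogen and perlecan bridge laminin, 6 of 8 were lower (median -0.12). Col4a6, a minor collagen IV chain, had 1.08 ± 0.465 CPM in knockout and 2.09 ± 0.445 CPM in Tln2-null hearts, a log2 fold change of -0.97 ± 0.22 (SE; adjusted p = 0.251 in edgeR, 0.0271 in DESeq2 and 0.0453 in limma-voom with quality weights). Col18a1, Col15a1 and Col4a5 had -0.34 ± 0.16, -0.32 ± 0.22 and -0.07 ± 0.07. Of 19 other proteins of the membrane, 12 were lower (median -0.14). Smoc2, a calcium-binding matrix protein, had 127 ± 8.50 CPM in knockout and 110.2 ± 8.73 CPM in Tln2-null hearts (log2 fold change 0.20 ± 0.05; adjusted p = 0.339 in edgeR and 0.0247 in DESeq2). Fbln1 (fibulin-1), which binds laminin and nidogen, had 87.9 ± 28.2 CPM in knockout and 148 ± 44.0 CPM in Tln2-null hearts, a log2 fold change of -0.77 ± 0.19 (SE; adjusted p = 0.375, edgeR). Bgn (biglycan) and Npnt (nephronectin) had -0.38 ± 0.14 and -0.51 ± 0.27. Over all genes tested 51.2% were lower, with a median of -0.0027. The part of the lower fibroblast marker sums in these lists was not tested.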

How the data were processed

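Directional libraries were made from left ventricle RNA extracted with TRIzol and a column kit, per the labels' protocols. DRAGEN and DESeq2 are named as tools, and mm10 as the build, per the submitters' processing notes, which give neither roles nor versions. The count values, as deposited by the authors, are whole reads per gene symbol in each library. The normalized signal that the authors deposited, for 16405 entries, equals those counts divided by 1 factor per library: 100% of its values came out whole to within 0.001, and 16384 named genes had the reads of the count table, so a count test on them is the test used here. Symbols had become dates in 26 entries. Reads shared between similar genes could not be followed.

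Counts were tested with edgeR 4.0.16 (R 4.3.3; quasi-likelihood, TMM, filterByExpr, which left 13775 genes) with genotype and sex as terms, or with 1 mean per genotype and sex. P-values were adjusted over all genes tested by Benjamini-Hochberg, and calls are at 0.05. The test was checked on simulated counts with 1 spread for all genes and changes larger than the genotype effects of the 10 genes over all mice. That check does not show how the test does at effects of their size. Standard errors are the log2 fold change divided by the root of F. Each library is 1 mouse, so the edgeR p-values set a group difference against the spread between mice. Replicates were numbered here in accession order. CPM per kb used merged exons of GENCODE M21, and positions and promoters are from RefSeq GRCm38.p6. Marker and partner lists held 158 genes, of which 157 were found, 2 by an older symbol. The 10 genes, these lists and the pairs were chosen with earlier results of these data known. Named were all 10 genes, the other laminin chains, up to 4 genes of lowest p per partner list, and the 5 genes most like Lamc1, Nid1 and Hspg2. Of the genes this rule names, 2 are not reported here. Ratios were compared by exact permutation, correlations by 100000 resamples (exact within a genotype). The alternatives were DESeq2 size factors, 2 other filters on low counts (none, or 1 CPM in 8 libraries), DESeq2 1.42.0, limma-voom with quality weights (limma 3.58.1), the title number as a covariate, no term for the other factor, and leaving out libraries. Removing the title number from the correlations was added after seeing the data.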

Additional observations from a re-analysis of the deposited data

Results flagged for a closer look

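Nid2 in Tln2-null replicate 4, a female with Y-linked reads over 1% of the male mean, was 48.8 CPM. The next highest Tln2-null heart had 34.5 CPM and the lowest 27.4 CPM. The gap to the nearest heart was 0.668 of the group's range, above the Dixon limit of 0.526 for 8 samples. The same library was among the highest 3 of 16 for 7 of the 10 genes. Of 30 groups of values looked at, this was the 1 past the limit, where chance gives about 1 in 20.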

How the results depend on the processing

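No paired analysis was possible because the title number of each library belongs to 1 mouse only. None of the 10 genes was called in any comparison under any alternative run, and the cause of the shifts below was not tested. Over all genes, the genotype calls were 1 with no filter on low counts, 17 with DESeq2, 11 with limma-voom with quality weights, 5 without knockout replicate 8 and Tln2-null replicate 8, and 0 to 7 with 1 library left out. DESeq2 called 21 genes between the sexes and 2 in females, where leaving out 1 library gave 0 to 1. When the 4 females with Y-linked reads were left out, which keeps 1 knockout female, the median log2 fold change of the 10 genes was 0.31 in females and 0.31 for the difference between the sexes. Under that alternative the genotype effect was 0.14 for Lama4, 0.0085 for Lamb1, 0.073 for Nid1, 0.16 for Nid2, 0.031 for Hspg2, 0.043 for Agrn, 0.0096 for Lama3, 0.023 for Cd44, 0.17 for Sdc4 and 0.041 for Col15a1, all turned in sign. The log2 ratio differences turned to -0.051 for Lama2 over Lama4, 0.10 (0.0996) for Lama5 over Lama2 and 0.025 for Nid2 over Nid1 by genotype, and to -0.049 for Lamb1 over Lamb2 by sex. With the title number as a covariate the effect was 0.11 for Lama5, 0.046 for Nid1, 0.042 for Agrn and 0.028 for Lama3. Lama3 also turned to 0.00064 with 1 CPM in 8 libraries, 0.017 with limma-voom of that kind and 0.0020 without the sex term, and Nid2 over Nid1 by sex to 0.018 without knockout replicate 8 and Tln2-null replicate 8.

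With 1 library left out, genotype effects that turned in sign ranged from -0.071 to 0.036 for Lama4, -0.16 to 0.067 for Lama5, -0.051 to 0.0097 for Lamb1, -0.12 to 0.0045 for Nid1, -0.13 to 0.042 for Nid2, -0.094 to 0.00017 for Agrn, -0.046 to 0.11 for Lamb3 and -0.056 to 0.030 for Lama3. The sex difference in the Lama2 effect ranged from -0.036 to 0.057, and Nid2 over Nid1 from -0.052 to 0.027 by genotype and -0.052 to 0.029 by sex. Col4a6 passed without knockout replicate 8 (-1.15, adjusted p = 0.0321, edgeR). The median SE over all genes, 0.091 on the log2 scale, sets what this depth and number of mice can show.

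Between pairs, r within knockout hearts was 0.54 for Lama4 and Lamb1, 0.55 for Lama4 and Lamc1, 0.65 for Lamb2 and Lamc1, 0.76 for Nid1 and Nid2 and 0.68 for Hspg2 and Nid1, none with an adjusted permutation p under 0.05. It was -0.063 for Lamb1 and Lamc1 and, now past the threshold, 0.87 for Lama5 and Lamc1. Within Tln2-null hearts r was 0.69 for Lama4 and Lamc1, 0.40 for Lamb2 and Lamc1, 0.87 for Nid1 and Lamc1, 0.82 for Nid1 and Nid2, 0.46 for Hspg2 and Nid1 and 0.71 for Hspg2 and Agrn, none past the threshold at n = 8, and it turned to 0.74 for Lama2 and Lamb2 and to 0.053 for Lama5 and Lamb1. Without the 2 farthest hearts r was 0.23 for Lama4 and Lamc1, 0.45 for Lamb2 and Lamc1, 0.48 for Nid1 and Nid2 and 0.51 for Hspg2 and Nid1, and turned to 0.13 for Lama5 and Lamb1 and -0.016 for Lamb1 and Lamc1. With the title number removed it was 0.37 for Lamb2 and Lamc1 and 0.45 for Hspg2 and Nid1, and turned to 0.14 for Lama5 and Lamb1 and -0.12 for Lama5 and Lamb2.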
